A study of Homo sapiens with 16 samples.

Results

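The mitochondrial ribosomal protein genes are the nuclear genes whose symbols begin with MRPL (large subunit) or MRPS (small subunit). They were taken as every protein-coding gene row with such a symbol followed by a number and, in some cases, a letter. The rule found 78 members among 67938 gene rows, 49 named MRPL and 29 named MRPS. By current structural assignment 51 of the proteins sit in the large subunit and 26 in the small one, because MRPS18A and MRPS30 belong to the large subunit, and MRPS36 belongs to neither. A bacterial counterpart is known for 46 of them, and 32 have none. The study sequenced cytoplasmic and nuclear RNA of HepG2, a liver tumour line that keeps hepatocyte traits, and of SNU-449, a liver carcinoma line of less differentiated, mesenchymal type. Cells were taken 48 h after transfection of either the control siRNA, NC, or siPANAD-1 mixed with siPANAD-2, which target the RNA of PANAD (C7orf25). All 8 groups are unmodified lines in culture that differ in line, fraction and siRNA, with 2 libraries each, described as biological duplicates, and 16 libraries in all. The title of the series speaks of NXF1, the receptor for mRNA export, and of CDK6 mRNA leaving the nucleus. The comparisons ask how the level of each mRNA in either fraction, and the ratio of nucleus to cytoplasm, differed with siPANAD.

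Mitochondria carry their own ribosome, which makes the few membrane proteins of the respiratory chain that mitochondrial DNA encodes. Its ribosomal RNAs are transcribed inside the organelle, while every protein of it is encoded in the nucleus, exported as mRNA, made in the cytosol and imported. Hepatocytes are rich in mitochondria, and the supply of these proteins has to keep pace with the ribosomal RNA and with growth. Promoters of nuclear genes for mitochondrial proteins often bind ETS-family factors such as GABP, the factor NRF1, and YY1.

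The libraries held 16238235 to 30321908 counts, and the members took a small part of them. Their summed share ran from 0.576% to 0.616% in HepG2 cytoplasm, 0.277% to 0.326% in HepG2 nucleus, 0.795% to 0.820% in SNU-449 cytoplasm and 0.349% to 0.416% in SNU-449 nucleus. The widest exact 95% interval of such a share spans 0.0042 percentage points to either side, for counting error alone. The targeted gene C7orf25 had 0 to 7 counts in every library, so its level did not check the knockdown. CDK6 in HepG2 cytoplasm was at 88.5 and 97.3 CPM (counts scaled to library size) with NC and at 26.7 and 25.9 CPM with siPANAD, and at 150 and 143 CPM and then 28.9 and 26.4 CPM in that of SNU-449. GAPDH ran from 4045 to 5934 CPM in the cytoplasmic and from 884 to 1365 CPM in the nuclear libraries. ACTB, the other cytoplasmic check, was at 5310 and 5363 CPM in SNU-449 cytoplasm NC and at 3568 and 3585 CPM with siPANAD, and at 8162 and 8084 CPM in the NC nucleus of that line. MALAT1, an RNA held in the nucleus, was at 2.21 to 5.84 CPM in cytoplasmic and 370 to 634 CPM in nuclear libraries. The hepatocyte markers, headed by albumin, summed to 21470 CPM or more in every HepG2 library and to 19.8 to 277 CPM in SNU-449. FGB of that list went the other way in the NC nuclei, at 272 and 228 CPM in SNU-449 and 129 and 104 CPM in HepG2. In the NC cytoplasm it was at 50.8 and 39.6 CPM in SNU-449 and 66.9 and 57.8 CPM in HepG2. The mesenchymal marker VIM was at 0 to 0.243 CPM in HepG2 and at 1080 to 1750 CPM in SNU-449, but FN1 of the same list was higher in HepG2, so the summed list ran from 1131 to 7371 CPM there and from 1172 to 2242 CPM in SNU-449. In nucleus NC, COL1A1 was at 344 and 385 CPM in SNU-449 and at 1.48 CPM in HepG2. ZEB1 did not separate those nuclei, at 24.1 and 23.2 CPM in SNU-449 and 29.1 and 21.9 CPM in HepG2, and THY1 was near 0 in both lines. LYZ, a gene of the blood list, was at 355 and 505 CPM in the NC libraries of HepG2 cytoplasm, and at 303 and 283 CPM with siPANAD, while that list reached at most 0.175 CPM in SNU-449. Its part in the results was not tested. The 37 genes of mitochondrial DNA were listed at 0 in all 16 libraries, so the ribosomal RNAs of the mitochondrial ribosome could not be set beside its proteins.

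All but a few members had enough counts for a test. A test was possible for 75 members in HepG2 (of 17499 genes tested), 76 in SNU-449 (of 17895) and 76 in the fit of both lines together (of 20459). MRPL53, a mitochondria-specific protein of the large subunit, was listed at 0 counts in all 16 libraries. MRPS5, a small-subunit protein with a bacterial counterpart, had 0 to 9 counts. MRPS24 had 1 to 10 counts in HepG2, too few for a test there, and 7 to 31 in SNU-449. Annotated genes share exonic bases with some members, 45.2% of MRPL53 and 23.2% of MRPS24 on the same strand. Where the counting gave such reads to neither gene, a low count does not show a low level. MRPL12 (68.2%), MRPL38 (37.5%), MRPS28 (35.8%), MRPS17 (27.0%) and MRPL33 (21.1%) also share over 20% on the same strand, and their values are uncertain for that reason. On the opposite strand MRPS18A, MRPS18C, MRPL43, MRPL9, MRPL51, MRPS25 and MRPL4 overlap other genes by 21.4% to 47.0%. The 79 annotated pseudogenes of the family held only 16 to 93 counts per library, against at least 44917 for the members.

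Levels between genes were compared per kilobase of exonic length, since the members' transcripts run from 518 to 5621 nucleotides with a median of 1274. In NC, the median over members with counts was 68.3 CPM per kb in HepG2 cytoplasm and 18.2 in HepG2 nucleus. The corresponding medians were 52.9 and 21.1 CPM per kb in SNU-449. MRPL28 was the highest member in HepG2 cytoplasm at 280 CPM per kb, followed by MRPL37 at 263 and MRPS26 at 254. A different set led in SNU-449 cytoplasm, where MRPL55 was at 629 CPM per kb, MRPS12, a protein of the decoding centre, at 547, and MRPL41 at 501. With siPANAD the median per kb was 66.9 and 15.0 in the 2 fractions of HepG2, and 54.0 and 20 in those of SNU-449.

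Most messages of this family had a lower nuclear share than the typical gene in control cells. The scale sets the typical gene to about 0, so a negative log2 ratio means a lower nuclear share than is usual among genes and gives no amount in a cell. In HepG2 NC, 72 of 75 members were lower in the nucleus, 2 were higher and 1 did not pass, where 77.1% of all genes tested passed, 39.4% as higher and 37.7% as lower. The members' median log2 ratio of nucleus to cytoplasm was -1.56, with 0.04 over all genes tested. The same comparison in SNU-449 had 61 of 76 members lower, 6 higher and 9 not past the threshold (an adjusted p under 0.05 in edgeR), where 79.8% of all genes passed, 43.5% as higher and 36.2% as lower. Their median was -1.41, with 0.22 over all genes. There were 61 members lower in the nucleus of both lines, and the share of all genes lower in both is not given here. Both MRPL and MRPS genes spread over the range, and across 75 members the ratios of the lines had a Spearman coefficient of 0.66, a description over genes that come from the same libraries.

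**Figure D1:**
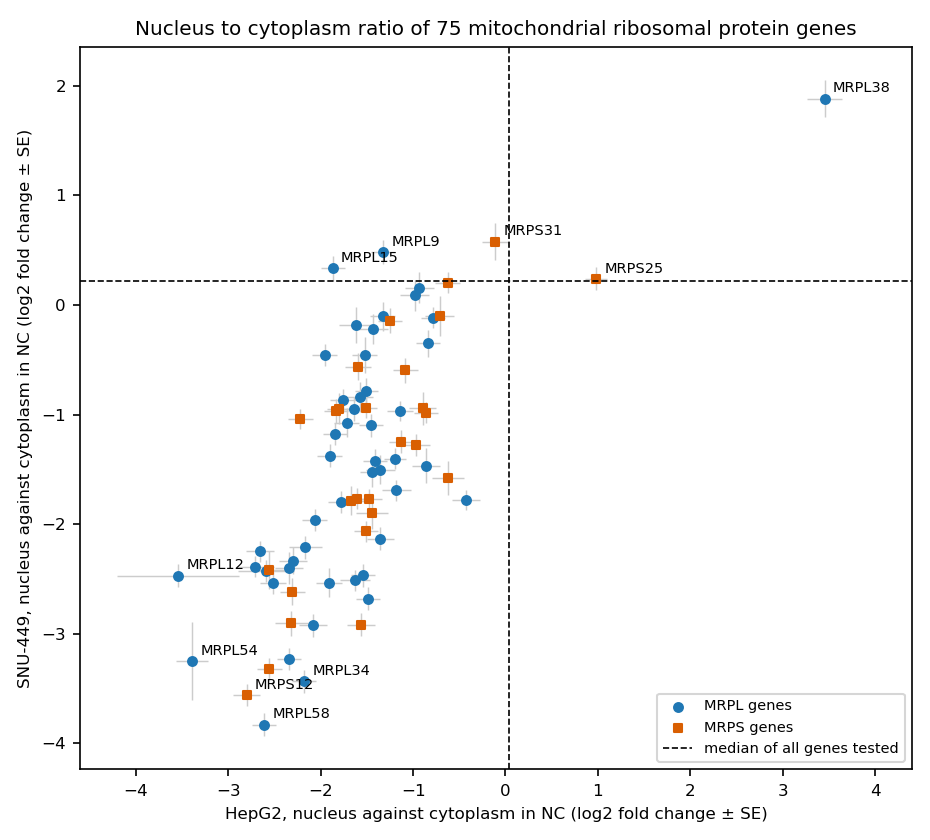
Each point is 1 of 75 members, with the log2 ratio of nucleus to cytoplasm in NC cells of HepG2 (x axis) and SNU-449 (y axis), error bars of 1 SE, circles for MRPL and squares for MRPS, and dashed lines at the median of all genes tested. Most members lie below and to the left of the dashed lines, and MRPL38 stands at 3.46 and 1.88.

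MRPS12 had a low nuclear share in both lines. Its HepG2 NC libraries were at 138 and 123 CPM in the cytoplasm and at 16 and 21.3 CPM in the nucleus, a log2 ratio of -2.80 (SE 0.14; edgeR adjusted p = 7.4e-15). In SNU-449 it was at 633 and 686 CPM against 58.0 and 54.1 CPM, a log2 ratio of -3.56 (SE 0.10; edgeR adjusted p = 1.7e-26). The fractions did not overlap in either line. MRPL54, a mitochondria-specific large-subunit protein, had log2 ratios of -3.39 (SE 0.17) and -3.25 (SE 0.36). The lowest value of SNU-449 was that of MRPL58, also called ICT1, a ribosome-bound hydrolase that frees peptides from stalled ribosomes, at -3.83 (SE 0.11; edgeR adjusted p = 4.8e-27). The lowest value of HepG2, -3.54 (SE 0.66; edgeR adjusted p = 0.00709), was that of MRPL12, a protein of the stalk that recruits translation factors. Its cytoplasmic NC libraries were at 57.6 and 122 CPM and its nuclear ones at 4.28 and 11.2 CPM, so its replicates lay far apart. With the replicate number as a block this call was lost (-3.52; edgeR adjusted p = 0.0534).

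MRPL38, a mitochondria-specific protein of the large subunit, was the exception in both lines. Its HepG2 NC libraries were at 1.81 and 2.26 CPM in the cytoplasm and at 21.9 and 23.8 CPM in the nucleus, 11-fold higher there (log2 3.46, SE 0.19; edgeR adjusted p = 1.8e-14). SNU-449 had 4.54 and 7.43 CPM in the cytoplasm and 19.9 and 24.4 CPM in the nucleus, 3.69-fold higher (log2 1.88, SE 0.17; edgeR adjusted p = 2.0e-11). The fractions were fully apart in both lines, and this is a gene of which 37.5% of the exonic bases are shared. MRPS25, a mitochondria-specific small-subunit protein, had 77.8 and 81.5 CPM in the cytoplasm and 158 and 157 CPM in the nucleus of HepG2 NC (log2 0.98, SE 0.12; edgeR adjusted p = 6.7e-08). The SNU-449 ratio of MRPS25 was 0.24 (SE 0.10; edgeR adjusted p = 0.038), a call lost under most alternatives, with a value of -0.18 once the trend with transcript length was removed. Among the other members called as more nuclear in SNU-449 were MRPS31 (0.58, SE 0.17), MRPL9 (0.48, SE 0.11) and MRPL15 (0.33, SE 0.12). MRPL15 lost its call without cytoplasm NC replicate 1 or 2 or nucleus NC replicate 1 (lowest value 0.20), and MRPS31 without the last of these (0.40).

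The lines differed in these ratios for many members. The difference itself, SNU-449 minus HepG2, passed for 47 of 76 members, 27 higher and 20 lower, where 33.3% of all genes passed, 20% as higher and 13.4% as lower. The largest was MRPL15, from the heart of the large subunit, with a log2 ratio of -1.87 in HepG2 and 0.33 in SNU-449, a difference of 2.23 (SE 0.17; edgeR adjusted p = 2.8e-14). MRPL9 differed by 1.83 (SE 0.17), MRPL10 by 1.53 (SE 0.17) and MRPL36 by 1.46 (SE 0.25) in the same direction. MRPL38 differed by -1.55 (SE 0.27; edgeR adjusted p = 1.1e-05), being less nuclear in SNU-449.

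Control levels also differed between the lines, as they did for most genes. In cytoplasm NC, 32 of 76 members were higher and 30 lower in SNU-449, where 71.2% of all genes passed, 34.3% as higher and 36.9% as lower, and in nucleus NC 33 were higher and 20 lower, where 75.5% passed, 39.1% as higher and 36.5% as lower. MRPL41 had the largest cytoplasmic difference, with 634 ± 38.8 CPM (SD, n = 2) in SNU-449 and 106 ± 9.13 CPM in HepG2 (log2 2.58, SE 0.17; edgeR adjusted p = 5.7e-13). MRPL36 went the other way, at 10.8 ± 1.23 and 60.7 ± 17.4 CPM (log2 -2.48, SE 0.18; edgeR adjusted p = 3.1e-13). MRPS12 (2.32, SE 0.13), MRPL12 (2.23, SE 0.42) and MRPL55 (2.01, SE 0.14) were also higher in SNU-449. Among nuclear levels MRPL12 differed by 3.33 (SE 0.48) and MRPL41 by 2.56 (SE 0.17), while MRPS25 was lower in SNU-449 by -1.62 (SE 0.11). The libraries of the lines did not overlap for any of these.

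The promoter windows of 6 members on which the knockdown results turn are printed here. MRPS35 and MRPL49 had the largest rise and fall in both cytoplasms, MRPL27 and MRPL58 moved in only some of the groups, and MRPL45 and MRPL50 moved differently in cytoplasm and nucleus. Each runs 5′ to 3′ on the gene's strand, from 120 bases before to 40 bases after the start that RefSeq annotates (GRCh38.p14), with matches to an ETS motif (CCGGAAG) or a YY1 motif (AAGATGGC), searched on both strands, in capitals. The windows lie at chr11:65122063-65122222 (plus strand) for MRPL49, chr12:27710712-27710871 (plus) for MRPS35, chr17:50373145-50373304 (minus) for MRPL27, chr17:75012550-75012709 (plus) for MRPL58, chr17:38297048-38297207 (plus) for MRPL45 and chr9:101398579-101398738 (minus) for MRPL50.
MRPL49: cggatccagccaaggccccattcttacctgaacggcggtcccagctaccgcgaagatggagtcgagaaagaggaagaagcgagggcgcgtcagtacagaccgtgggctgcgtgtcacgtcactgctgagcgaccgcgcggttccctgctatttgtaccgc
MRPS35: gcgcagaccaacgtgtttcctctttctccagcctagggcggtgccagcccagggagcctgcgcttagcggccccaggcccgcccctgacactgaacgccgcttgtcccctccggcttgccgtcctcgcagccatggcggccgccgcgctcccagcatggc
MRPL27: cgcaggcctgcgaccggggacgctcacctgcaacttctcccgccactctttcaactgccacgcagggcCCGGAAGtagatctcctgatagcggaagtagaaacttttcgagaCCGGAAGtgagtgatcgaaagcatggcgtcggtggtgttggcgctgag
MRPL58: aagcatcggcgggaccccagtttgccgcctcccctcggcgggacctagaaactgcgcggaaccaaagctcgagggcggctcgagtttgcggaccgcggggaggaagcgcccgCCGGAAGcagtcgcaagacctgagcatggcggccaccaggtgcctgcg
MRPL45: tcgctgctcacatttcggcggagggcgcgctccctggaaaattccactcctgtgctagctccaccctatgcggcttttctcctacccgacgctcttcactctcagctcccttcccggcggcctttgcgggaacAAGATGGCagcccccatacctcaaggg
MRPL50: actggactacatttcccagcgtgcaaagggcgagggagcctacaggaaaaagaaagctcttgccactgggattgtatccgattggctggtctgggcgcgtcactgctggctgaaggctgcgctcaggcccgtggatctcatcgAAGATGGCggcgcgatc
MRPL27 held 2 ETS matches, MRPL58 held 1, MRPL45 and MRPL50 held 1 YY1 match each, and the windows of MRPL49 and MRPS35 held neither. No match says only that these letters are not in this window.

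Over the family, windows from 250 bases before to 50 after the start were found for 69 of 78 members. The ETS letters were in a window of 30 of them (43.5%), against 20.6% of the 11568 tested protein-coding genes with a window. By window they were in 38.8% of the members' windows, 15.4% of those of tested coding genes and 10.3% of all windows. The YY1 letters were in 21 members (30.4%), against 5.86% of tested coding genes. By window they were in 27.1% of the members', against 4.26% of those of tested coding genes and 2.89% of all. Either motif was present in 43 of 69 members (62.3%) and in 24.9% of tested coding genes. The NRF1 letters (GCGCA, any base, GCGC) were in 13.0% of members and 12.2% of tested coding genes, the E-box (CACGTG) in 13.0% and 12.1%, and the CCAAT box in 33.3% and 42.9%. With 1 window per member, 15 of the YY1 matches were on the gene's own strand after the start. The motif contains the letters ATG, and in 12 of the 17 own-strand matches these were an annotated start codon, so the match can be shared with the beginning of the protein. The ETS letters lay before the start 18 times on the gene's strand and 15 times on the other. The response to siPANAD is set beside the motifs as a description. Of 28 tested members with the ETS letters in that window, 11 rose and 2 fell in HepG2 cytoplasm with siPANAD, and of 38 without them 14 rose and 3 fell. For the YY1 letters the counts were 6 and 0 of 19 with them and 19 and 5 of 47 without. In SNU-449 cytoplasm 6 rose and 4 fell of 20 members with the YY1 letters, and 8 rose and 10 fell of 47 without them. The median log2 fold changes with and without the YY1 letters were 0.13 and 0.26 in HepG2 cytoplasm, and 0.14 and 0.03 in that of SNU-449. For the ETS letters in SNU-449 cytoplasm 5 rose and 5 fell of 28 with them, and 9 and 9 of 39 without. Over all genes tested 23.7% rose in HepG2 cytoplasm and 19.6% in that of SNU-449. Differences between these small counts were not tested, and those of the nuclei are not given here.

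**Figure D2:**
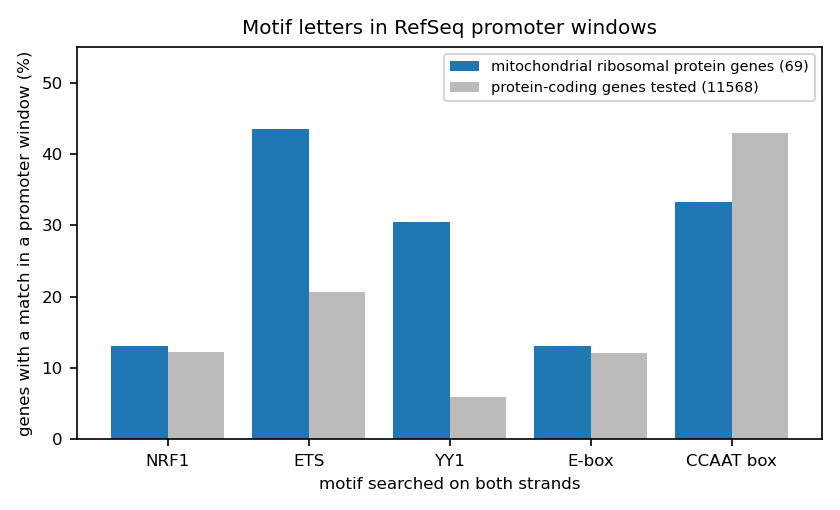
Bars give the percentage of 69 members (blue) and of 11568 tested protein-coding genes (grey) with the letters of each motif in a promoter window, on an axis from 0. The ETS and YY1 bars of the members stand at 43.5% and 30.4%, above 20.6% and 5.86% for the coding genes.

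In HepG2, siPANAD went with higher cytoplasmic levels of many members. Of 75 tested, 29 rose, 5 fell and 41 did not pass, where 48.0% of all genes tested passed, 23.7% as higher and 24.2% as lower. The share of members past the threshold in either direction, 45.3%, was close to that background, and 38.7% were higher and 6.67% lower. The members' median log2 fold change was 0.25 (quartiles -0.07 and 0.45), with 0.00 over all genes. A lower or higher value in bulk RNA cannot separate a change in some cells from a change in RNA per cell. MRPL genes gave 18 rises and 4 falls of 48, and MRPS genes 11 rises and 1 fall of 27. With each library's trend over transcript length removed, 15 members rose and 14 fell, with a median of 0.00. For this and the later comparisons, the shares of all genes at this setting or with a library left out are not given here. Without cytoplasm siPANAD replicate 1 the calls were 17 rises and 3 falls.

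The largest rise was that of MRPS35, a mitochondria-specific protein of the small subunit (ENSG00000061794, chromosome 12). It went from 50.6 and 55.8 CPM in NC to 105 and 92.4 CPM with siPANAD, 1.85-fold (log2 0.89, SE 0.13; edgeR adjusted p = 2.0e-06). MRPL45, which anchors the ribosome to the inner membrane, went from 147 and 153 to 248 and 282 CPM (log2 0.82, SE 0.13; edgeR adjusted p = 6.3e-06). For MRPL10, a protein of the stalk base, the NC libraries were at 183 and 165 CPM and the siPANAD libraries at 284 and 278 CPM (log2 0.69, SE 0.13; edgeR adjusted p = 5.7e-05). The siPANAD libraries lay above the NC libraries with no overlap in all of these. MRPL54 (0.83, SE 0.14), MRPL33 (0.75, SE 0.16), MRPL18 (0.69, SE 0.13) and MRPL27 (0.64, SE 0.13) rose as well. The call of MRPL27 was lost, at 0.31, where the length trend was removed in a fit with the replicate number as a block. MRPL18 and MRPL33 belong to the conserved core of the large subunit, and MRPL33 shares 21.1% of its exonic bases with another gene.

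The strongest fall was that of MRPL49, a mitochondria-specific large-subunit protein (ENSG00000149792, chromosome 11). Its libraries were at 176 and 169 CPM in NC and 93.4 and 97.7 CPM with siPANAD, a 1.80-fold fall (log2 -0.85, SE 0.12; edgeR adjusted p = 3.0e-06). MRPS6, a core small-subunit protein, was at 29.3 and 41.0 CPM in NC and at 24.2 and 21.0 CPM with siPANAD (log2 -0.65, SE 0.15; edgeR adjusted p = 0.00098). Both groups were apart for either gene, but MRPS6 lost its call without NC replicate 2 (-0.37). MRPL9 (-0.43, SE 0.13; -0.32 and no call without NC replicate 2) also fell. MRPL58 (-0.37, SE 0.12; -0.30 and no call without siPANAD replicate 1) and MRPL16 (-0.35, SE 0.13; no call without NC or siPANAD replicate 1) completed the 5.

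SNU-449 cytoplasm had rises and falls in nearly equal number. Of 76 members 17 rose, 16 fell and 43 did not pass, where 39.7% of all genes passed, 19.6% as higher and 20.1% as lower. The members' share called, 43.4%, lay near that of all genes. The median was 0.10, with 0.04 over all genes. With the length trend removed, where the shares of all genes are not given here, there were 12 rises and 21 falls. Without cytoplasm siPANAD replicate 2 the counts were 8 and 11. MRPS35 had the largest change of any member here, from 19.1 and 16.9 CPM in NC to 75.6 and 82.0 CPM with siPANAD. That is 4.38-fold (log2 2.13, SE 0.13; edgeR adjusted p = 2.9e-16), and the groups were far apart. MRPL50, a mitochondria-specific large-subunit protein, rose from 17.1 and 14.7 to 25.7 and 29 CPM (log2 0.78, SE 0.13; edgeR adjusted p = 1.1e-05). MRPL45 went from 83.5 and 76.4 to 120 and 125 CPM (log2 0.61, SE 0.10; edgeR adjusted p = 2.4e-06), and MRPL10 from 48.1 and 50.3 to 76.2 and 68.3 CPM (log2 0.55, SE 0.10; edgeR adjusted p = 3.1e-05). Neither gene's groups overlapped. MRPS31 (0.57, SE 0.18) rose with a call that was lost without NC or siPANAD replicate 2.

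The falls of SNU-449 cytoplasm were led by MRPL49, from 352 and 394 CPM in NC to 178 and 171 CPM with siPANAD. It was 2.14-fold lower (log2 -1.10, SE 0.09; edgeR adjusted p = 4.2e-12), without overlap. MRPL58 went from 350 and 392 to 235 and 210 CPM (log2 -0.74, SE 0.09; edgeR adjusted p = 3.9e-08). MRPS27, a helical-repeat protein of the small subunit, went from 172 and 194 to 115 and 105 CPM (log2 -0.73, SE 0.10; edgeR adjusted p = 9.6e-08). The siPANAD libraries were below both NC libraries for either gene. MRPL27, the protein next to the peptidyl transferase centre, fell from 210 and 231 to 163 and 127 CPM (log2 -0.61, SE 0.10; edgeR adjusted p = 5.8e-06), and MRPL9 fell by 0.49 on the log2 scale (SE 0.12; edgeR adjusted p = 0.00095).

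Both cytoplasms shared 11 rises: MRPL10, MRPL13, MRPL32, MRPL33, MRPL34, MRPL45, MRPL47, MRPL50, MRPS18B, MRPS21 and MRPS35. They shared 3 falls, those of MRPL49, MRPL58 and MRPL9. The 11 belong to 29 rises of HepG2 and 17 of SNU-449. The share of all genes tested that changed alike in both cytoplasms is not given here, so these overlaps have no background beside them. MRPS18B, a small-subunit protein, rose by 0.53 (SE 0.12) in HepG2 and 0.41 (SE 0.10) in SNU-449. MRPL47, which sits at the polypeptide exit, rose by 0.46 (SE 0.13) and 0.47 (SE 0.13), and its HepG2 call was lost with the length trend removed (0.22) or without siPANAD replicate 1 (0.36), and its SNU-449 call without NC replicate 2 (0.37). In the HepG2 cytoplasm MRPL50 had 58.1 and 50.4 CPM with NC and 70.9 and 70.4 CPM with siPANAD (log2 0.38, SE 0.13; edgeR adjusted p = 0.0168), a call lost with no filter on low counts or without NC replicate 2 or either siPANAD replicate (values down to 0.28). Across 75 members the effects of the lines had a Spearman coefficient of 0.48, a description over genes measured in the same libraries.

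**Figure D3:**
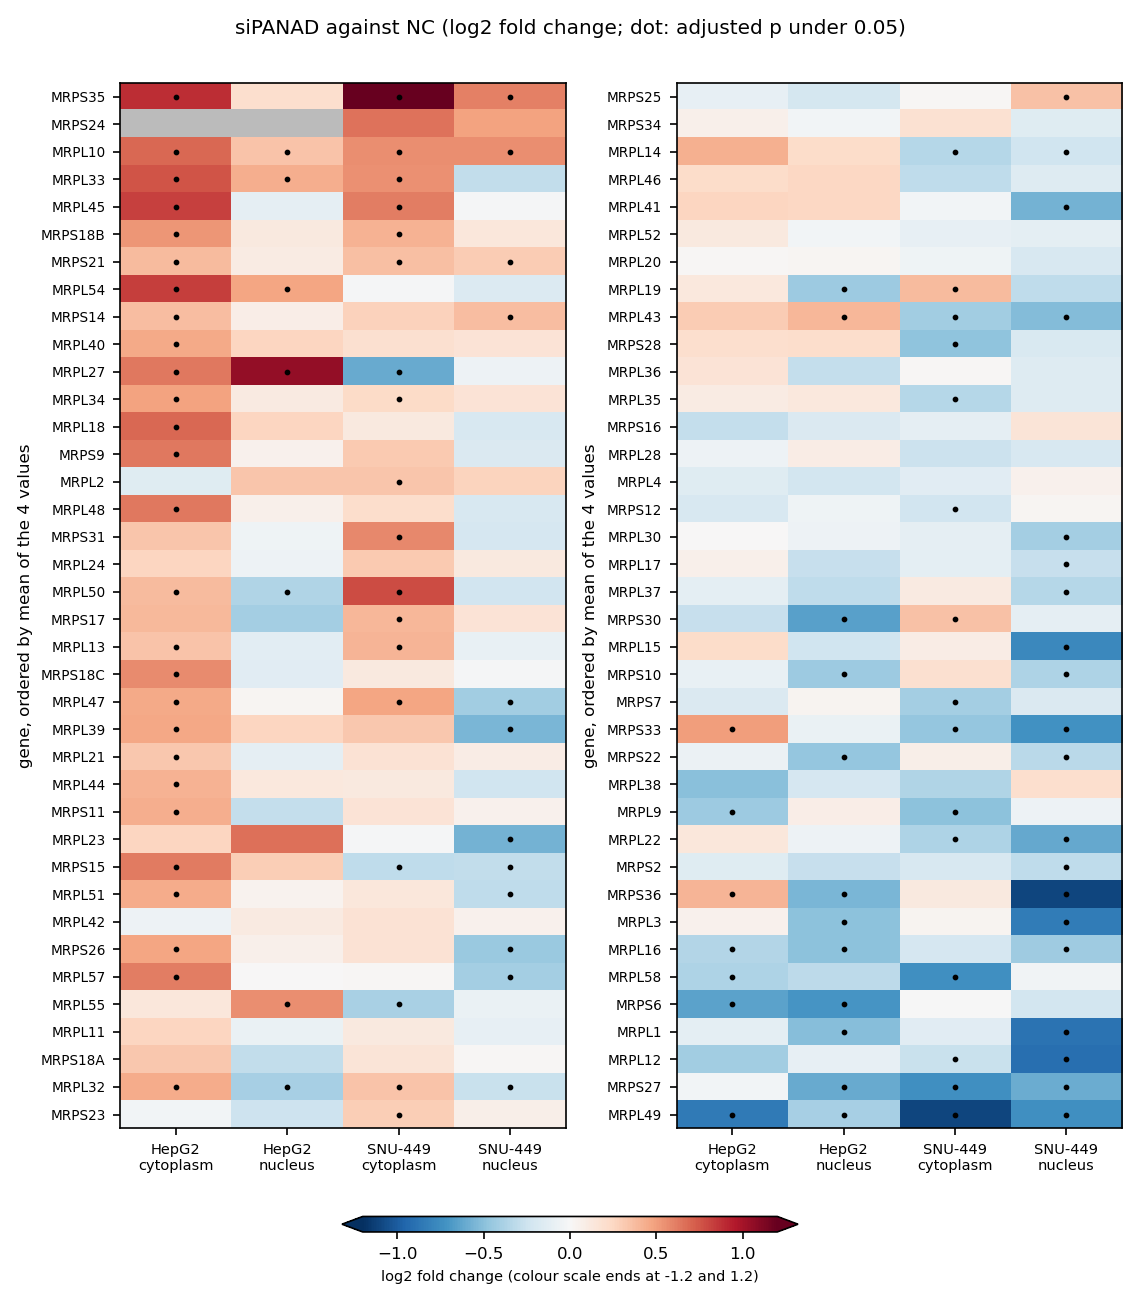
Colour gives the log2 fold change of siPANAD against NC for 76 members (rows, in 2 panels) in the 4 line and fraction pairs (columns), and a dot marks an adjusted p under 0.05, with grey for a gene that was not tested. The HepG2 cytoplasm column holds mostly rises (29, against 5 falls), and the SNU-449 nucleus column mostly falls (27, against 5 rises).

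Among members the nuclei gave more falls than rises, though in HepG2 the share that fell was below that of all genes. HepG2 nucleus had 6 rises and 13 falls among 75 members, with 56 not past the threshold, where 45.6% of all genes passed, 22.0% as higher and 23.6% as lower. Of the members 25.3% were called, 8% as higher and 17.3% as lower, so both shares were below those of all genes. The median was -0.05, against -0.03 over all genes. With the length trend removed, where the shares of all genes are not given here, there was 1 rise and there were 20 falls. These counts rested on single libraries: there were 1 and 9 without nucleus NC replicate 1, 2 and 10 without siPANAD replicate 1, and 3 and 6 without siPANAD replicate 2. SNU-449 nucleus had 5 rises and 27 falls among 76, with 44 not past, where 46.0% of all genes passed, 22.1% as higher and 23.9% as lower. Of the members 42.1% were called, 35.5% as lower. The median was -0.18, with -0.01 over all genes, and without siPANAD replicate 2 there were 3 rises and 17 falls. NEAT1, a nuclear RNA, differed in the same libraries, from 1168 and 1344 to 3274 and 2875 CPM in HepG2 nucleus and from 546.6 and 563.1 to 2526 and 2682 CPM in SNU-449 nucleus. Its part in the members' values was not tested.

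MRPL27 stood out in HepG2 nucleus, at 26.6 and 32.4 CPM in NC and 63.2 and 59.0 CPM with siPANAD. It was 2.07-fold higher (log2 1.05, SE 0.14; edgeR adjusted p = 1.0e-06), with the groups apart. The other rises there, led by MRPL55 (0.55, SE 0.15), MRPL54 (0.48, SE 0.18), MRPL33 (0.43, SE 0.16) and MRPL43 (0.40, SE 0.14), lost their calls without nucleus NC replicate 1 and with the length trend removed. Among the falls MRPS27 went from 114 and 112 to 69.9 and 78.5 CPM (log2 -0.61, SE 0.13; edgeR adjusted p = 0.00037). MRPS6 (-0.71, SE 0.16) and MRPS30 (-0.65, SE 0.14), a large-subunit protein despite its name, fell too, and neither lost its call in any alternative. MRPL1 (-0.51, SE 0.17), of the movable stalk at the exit site, lost it without NC replicate 1 or siPANAD replicate 2.

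In SNU-449 nucleus the largest fall was that of MRPS36, now known as a component of the oxoglutarate dehydrogenase complex and not of the ribosome. It was at 13.8 and 8.63 CPM in NC and at 6.06 and 4.36 CPM with siPANAD, 2.15-fold lower (log2 -1.10, SE 0.19; edgeR adjusted p = 3.6e-05). MRPL12 fell from 86.0 and 69.2 to 44.1 and 38.9 CPM (log2 -0.90, SE 0.10; edgeR adjusted p = 4.4e-09). The groups were apart for both, though the NC libraries of MRPS36 lay far from each other. MRPL1 (-0.88, SE 0.14), MRPL3 (-0.84, SE 0.11) and MRPL15 (-0.78, SE 0.11), all conserved large-subunit proteins, fell as well. MRPS35 rose from 10.4 and 8.29 to 15.3 and 13.0 CPM (log2 0.60, SE 0.14; edgeR adjusted p = 0.00039) and MRPL10 from 36.2 and 35.6 to 52.1 and 53.7 CPM (log2 0.56, SE 0.10; edgeR adjusted p = 1.8e-05). MRPS25 (0.36, SE 0.10), MRPS14 (0.37, SE 0.14) and MRPS21 (0.30, SE 0.09) also rose. The call of MRPS25 was lost without nucleus NC replicate 1. That of MRPS21 was lost without nucleus NC or siPANAD replicate 2 and with the length trend removed. MRPS14 lost its call with DESeq2, with no filter on low counts, and without nucleus NC replicate 2 or either nucleus siPANAD replicate.

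Set side by side over both lines and fractions, only MRPL10 rose in all 4 comparisons and only MRPL49 fell in all 4. In HepG2 nucleus MRPL10 went from 41.3 and 48.2 to 56.2 and 57.1 CPM (log2 0.34, SE 0.13; edgeR adjusted p = 0.0343) and MRPL49 from 32.6 and 35.4 to 23.9 and 27.6 CPM (log2 -0.40, SE 0.13; edgeR adjusted p = 0.0139). MRPL49 in SNU-449 nucleus went from 42.2 and 37.3 to 25 and 22.8 CPM (log2 -0.73, SE 0.10; edgeR adjusted p = 3.1e-07). No pair of these groups overlapped. Both HepG2 nucleus calls were unstable: that of MRPL10 was lost with the length trend removed (0.22) or without NC replicate 1 or either siPANAD replicate, and that of MRPL49 without NC replicate 2 or siPANAD replicate 1 (values from -0.35 to -0.30). There were 9 members lower in both nuclei, MRPL1, MRPL3, MRPL16, MRPL32, MRPL49, MRPS10, MRPS22, MRPS27 and MRPS36. Among all 78 members, 15 (MRPL32 and MRPS36 included) passed as higher in at least 1 comparison and as lower in another, and 16 passed in none, the untested MRPL53 and MRPS5 included. The shares of all genes with such joint calls are not given here. The plot of levels by library shows 8 members in all 16 libraries.

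**Figure D4:**
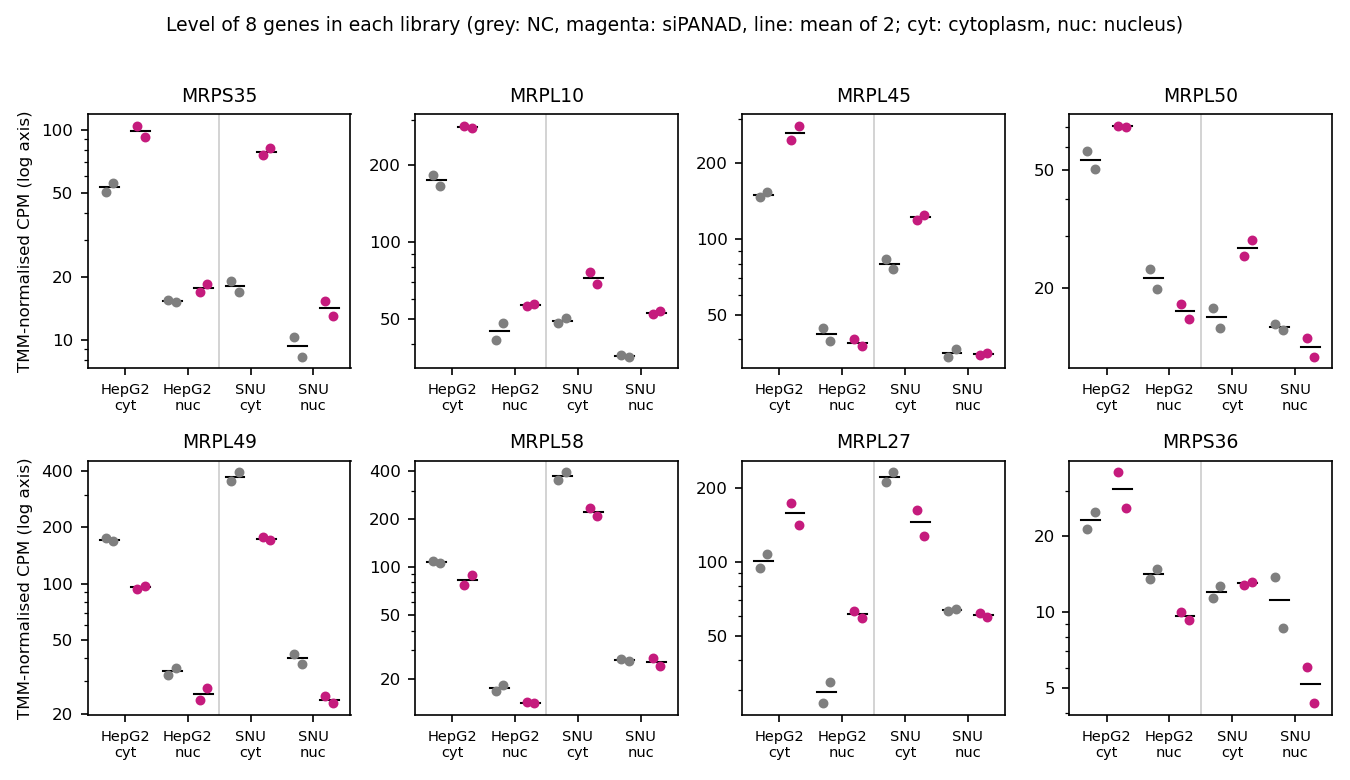
Points are the TMM-normalised CPM of 8 members in each of the 16 libraries on log axes, grey for NC and magenta for siPANAD, with a line at the mean of 2. MRPS35 rises most in SNU-449 cytoplasm (4.38-fold), MRPL10 rises and MRPL49 falls in all 4 pairs, and MRPL27 rises in both HepG2 fractions and falls in SNU-449 cytoplasm.

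The ratio of nucleus to cytoplasm moved down for more members than up. This shift is the nuclear log2 fold change minus the cytoplasmic one, so it is made of the values above. In HepG2 8 of 75 members had a lower ratio and 0 a higher one by the edgeR test, where 9.90% of all genes passed, 4.93% as higher and 4.97% as lower. The median shift was -0.32, with 0.00 over all genes, and 56 members were negative. At an unadjusted p under 0.05 there were 27, and by DESeq2 there were 7 lower and 0 higher. The shares of all genes at these 2 settings are not given here, so the counts have no background beside them. The count of HepG2 rested on single libraries. It was 15 (1 higher) without cytoplasm NC replicate 1, 2 and 3 without cytoplasm siPANAD replicate 1 and 2, and 4 without either nuclear siPANAD replicate. SNU-449 had 22 lower and 3 higher of 76, where 20.2% of all genes passed, 9.69% as higher and 10.5% as lower. Its median was -0.20, with -0.03 over all genes, and 56 members were negative. MRPL genes gave 16 falls and 3 rises of 48, and MRPS genes 6 falls and 0 rises of 28, with a median shift of -0.20 in both.

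The 5 members with a lower ratio in both lines were MRPL32, MRPL45, MRPL50, MRPS35 and MRPS36. The share of all genes with a lower ratio in both lines is not given here. MRPL45 shifted by -0.93 (SE 0.18; edgeR adjusted p = 0.00154) in HepG2, where its nuclear libraries were at 44.3 and 39.6 CPM in NC and 40.1 and 37.7 CPM with siPANAD. In SNU-449 nucleus it was at 34.1 and 36.5, then 34.7 and 35.5 CPM. Its nuclear groups overlapped in both lines while its cytoplasmic ones did not. MRPL32, a core large-subunit protein that a protease trims before assembly, went down in both nuclei and up in both cytoplasms. It starts on the plus strand of chromosome 7, 19895 bp from the 5′ boundary of C7orf25, the siRNAs' target gene on the minus strand. PSMA2, also on the minus strand, lies between them and overlaps the start of MRPL32. Its HepG2 nucleus fell from 44.1 and 37.3 to 32.3 and 29.4 CPM while the cytoplasm rose from 77 and 63.4 to 91.0 and 100 CPM, a shift of -0.85 (SE 0.19; edgeR adjusted p = 0.0049). It lost that call without cytoplasm siPANAD replicate 2 (-0.71). In SNU-449 nucleus it went from 69.6 and 65 to 56.1 and 55.4 CPM, and in the cytoplasm from 74.5 and 71.4 to 88.3 and 97.0 CPM. Its cytoplasmic calls were lost with the length trend removed (0.16 in HepG2 and 0.21 in SNU-449), and each of its 4 knockdown calls was lost without at least 1 of the libraries compared (HepG2 cytoplasm NC or siPANAD replicate 2, HepG2 nucleus NC replicate 1 or siPANAD replicate 2, SNU-449 cytoplasm siPANAD replicate 2, and SNU-449 nucleus NC replicate 1 or either siPANAD replicate).

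MRPS36 shifted by -0.95 (SE 0.22) in HepG2, where the call was lost without cytoplasm siPANAD replicate 1 (-0.63), and by -1.22 (SE 0.27; edgeR adjusted p = 0.00172) in SNU-449. MRPL50 shifted by -0.75 (SE 0.19) and -1.01 (SE 0.19; edgeR adjusted p = 0.00014), and the HepG2 call was lost in 4 of the fits with a library left out. The largest shift was that of MRPS35 in SNU-449, at -1.53 (SE 0.18; edgeR adjusted p = 1.8e-07). There its cytoplasmic rise of 2.13 went with a nuclear rise of 0.60. Its HepG2 shift of -0.68 (SE 0.19; edgeR adjusted p = 0.0188) was no longer called with no filter on low counts, or without cytoplasm siPANAD replicate 1 or 2 or nucleus siPANAD replicate 1 (-0.52 at the smallest). MRPL47 (-0.89, SE 0.19) and MRPL39 (-0.87, SE 0.19) followed in that line, and MRPS17 in HepG2 (-0.80, SE 0.25; edgeR adjusted p = 0.0374) kept its call in only some alternatives. The 3 higher ratios of SNU-449 were those of MRPL58 (0.69, SE 0.14), MRPL27 (0.55, SE 0.14) and MRPL9 (0.43, SE 0.16), all of which fell in the cytoplasm. The call of MRPL9 was lost with DESeq2, among other settings, and that of MRPL27 without cytoplasm siPANAD replicate 2 (0.39).

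**Figure D5:**
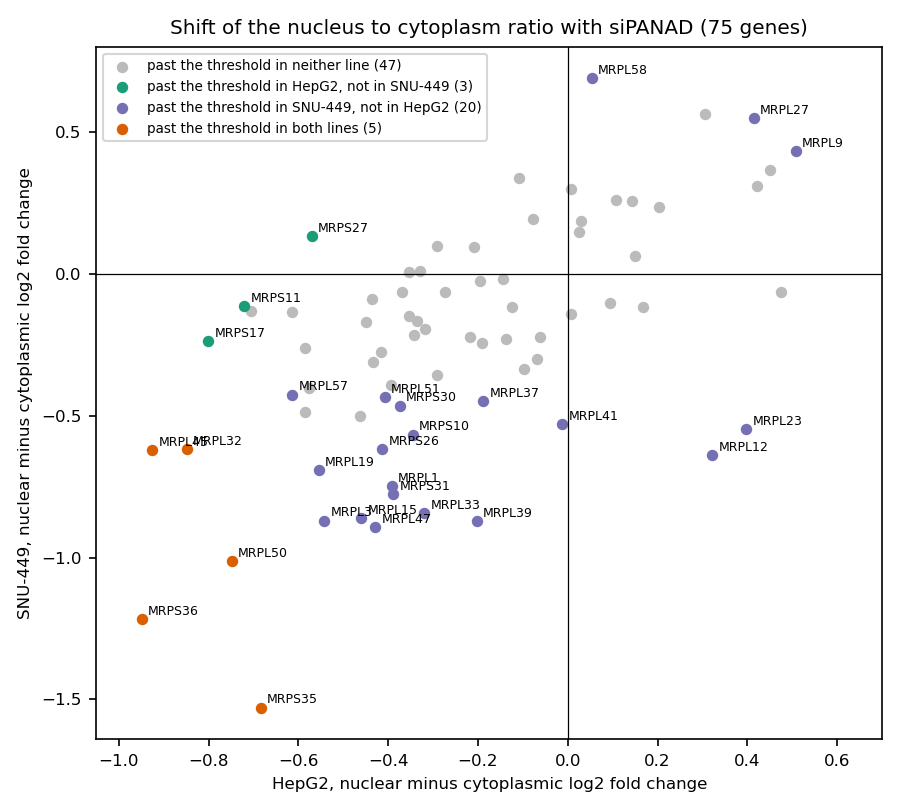
Each of 75 points is a member's nuclear minus cytoplasmic log2 fold change with siPANAD, in HepG2 (x axis) and SNU-449 (y axis), coloured by the line or lines in which it passed the threshold. Members that passed in both lines (MRPL32, MRPL45, MRPL50, MRPS35 and MRPS36) lie at the lower left, and MRPL58, MRPL27 and MRPL9 at the top.

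The effects of siPANAD differed between the lines for some members. In the cytoplasm the difference passed for 14 of 76 members, 3 higher and 11 lower in SNU-449, where 18.2% of all genes passed, 9.16% as higher and 8.99% as lower. MRPL27 differed most: it rose in HepG2 cytoplasm from 94.6 and 108 to 173 and 141 CPM and fell in that of SNU-449, a difference of -1.29 (SE 0.18; edgeR adjusted p = 2.7e-07). MRPS33 and MRPS15 also rose in HepG2 and fell in SNU-449. MRPS33, a mitochondria-specific small-subunit protein, went from 35.5 and 35.8 to 50.7 and 50.4 CPM, and from 42.0 and 37.2 to 29.1 and 28.1 CPM. MRPS15, which binds the small ribosomal RNA, went from 110 and 112 to 169 and 174 CPM, and from 135 and 130 to 112 and 103 CPM. In both lines the groups of these genes were apart. The HepG2 rise of MRPS33 was not called with the length trend removed (0.19), nor the SNU-449 fall of MRPS15 without NC replicate 1 or siPANAD replicate 2 (-0.28 and -0.25). The nuclear effects differed for 14 members, 2 higher and 12 lower, where 20.9% of all genes passed, 11.3% as higher and 9.61% as lower, and MRPL27 and MRPL43 led those that kept their calls when any library was left out. That count was 8, 7, 6 and 5 without HepG2 nucleus NC replicate 1, HepG2 nucleus siPANAD replicate 1, SNU-449 nucleus NC replicate 1 and SNU-449 nucleus siPANAD replicate 2. The ratio shifts differed between the lines for 0 of 76 members in edgeR and in DESeq2, where 0.484% of all genes passed, 0.347% as higher and 0.137% as lower. At an unadjusted p under 0.05 there were 6, with no share of all genes given at that threshold, and the smallest adjusted p was 0.148.

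Other genes of mitochondrial translation gave both rises and falls. Over all genes tested 23.7% rose and 24.2% fell in HepG2 cytoplasm, 22.0% and 23.6% in HepG2 nucleus, 19.6% and 20.1% in SNU-449 cytoplasm and 22.1% and 23.9% in SNU-449 nucleus, and lists this small are given as counts beside those shares. Of the 5 other proteins of the mitochondrial ribosome, 1 rose and 1 fell in HepG2 cytoplasm and 2 rose and 1 fell in SNU-449 cytoplasm, and 2 fell in each nucleus. Their ratio of nucleus to cytoplasm in NC had a median of -1.52 in HepG2 and -2.06 in SNU-449, with 4 of 5 lower in either line. Among 13 translation factors 4 rose and 4 fell in HepG2 cytoplasm, and 3 rose and 2 fell in that of SNU-449. The initiation factor MTIF3 rose there from 22.8 and 18.5 to 38.8 and 40.5 CPM in HepG2 (log2 0.95, SE 0.14; edgeR adjusted p = 5.0e-06). The release factor MTRF1 rose in HepG2 nucleus (0.70, SE 0.13) and fell in SNU-449 cytoplasm (-1.21, SE 0.22). The 17 mitochondrial aminoacyl-tRNA synthetases gave 5 rises and 4 falls in HepG2 cytoplasm and 4 and 1 in SNU-449 cytoplasm. NARS2, which charges the asparagine tRNA, rose from 6.15 and 6.37 to 17.2 and 15.9 CPM in SNU-449 cytoplasm (log2 1.40, SE 0.16; edgeR adjusted p = 6.1e-09), and MARS2, for methionine, fell in HepG2 (-1.23, SE 0.15). In SNU-449 nucleus LARS2 (-0.75, SE 0.12) and YARS2 (-0.77, SE 0.12) fell.

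Factors of ribosome assembly and ribosomal RNA modification gave more falls than rises in HepG2 cytoplasm, with 6 rises and 12 falls among 25 tested, where 23.7% of all genes rose and 24.2% fell, and a median of -0.21. In SNU-449 cytoplasm 8 rose and 7 fell of 26, and in its nucleus 8 rose and 3 fell. NOA1, a GTPase of ribosome assembly, rose in HepG2 cytoplasm from 41.4 and 30.9 to 88.4 and 80.1 CPM (log2 1.23, SE 0.14; edgeR adjusted p = 5.8e-08). METTL17, an assembly factor of the small subunit, fell in SNU-449 cytoplasm from 77.8 and 85.0 to 33.5 and 34.3 CPM (log2 -1.26, SE 0.11; edgeR adjusted p = 2.7e-12). Neither pair of groups overlapped. The rises of SNU-449 nucleus were led by METTL15 (1.26, SE 0.16), a methyltransferase of the small ribosomal RNA, and MTG1 (0.99, SE 0.10), a GTPase of the large subunit. Of 19 genes of mitochondrial RNA synthesis and stability, 1 rose and 5 fell in HepG2 cytoplasm, 2 rose and 9 fell in HepG2 nucleus (median -0.34), and 7 rose and 4 fell in SNU-449 cytoplasm. TRMT10C, a subunit of mitochondrial RNase P, rose in the last from 17.4 and 15.7 to 42.5 and 44.3 CPM (log2 1.39, SE 0.13; edgeR adjusted p = 4.1e-11). Of 9 regulators of mitochondrial biogenesis, 0 rose and 3 fell in HepG2 cytoplasm. MYC fell there from 328 and 249 to 98.7 and 101 CPM (log2 -1.53, SE 0.15; edgeR adjusted p = 4.9e-09) and in the nucleus by 1.41 on the log2 scale (SE 0.15). In HepG2 nucleus the coactivator PPRC1 fell (-1.24, SE 0.14) and the factor NRF1 rose (0.78, SE 0.14).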

How the data were processed

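Cytoplasmic and nuclear RNA of both lines was measured in 16 directional libraries, per the labels' protocols. The authors deposited raw read counts per gene, 1 table per line. Reads had been trimmed with Trim Galore 0.6.4 and aligned with HISAT2 2.2.1 to hg38, per the submitters' processing notes. For the counting program, the annotation and the use of strand the entry is "not given in the sources used here", so reads of overlapping and antisense genes may not be told apart. Of 67938 gene identifiers 61444 matched a symbol, and 1 gene whose entry was broken over several lines was left out. Gene lengths and overlaps come from GENCODE v29 (GRCh38), promoters from RefSeq (GRCh38.p14).

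The members and lists were chosen with earlier results of these data known. Each line was fitted with edgeR 4.0.16 in R 4.3.3 (TMM scaling, filterByExpr with a minimum count of 10, robust quasi-likelihood F test, 1 mean for each of the 4 groups of the line), and both lines together for differences between them. Calls are two-sided Benjamini-Hochberg adjusted p under 0.05 over all genes tested. Printed levels are CPM with TMM scaling, except those of the marker and check genes, which are scaled to library totals alone. SE is the log2 fold change divided by the root of F. There were 2 libraries per group, which the design text calls biological duplicates. Each p-value sets a difference against the spread between these samples, estimated over all groups in the fit with information shared across genes. It does not rest on the 2 groups compared alone. The tests were checked on simulated counts: a log2 change of 1 was recovered for 61% of changed genes in HepG2 cytoplasm (17096 genes in the fit) and 80% in SNU-449 nucleus (17559 genes), and one of 0.5 for 35% and 48%. Recovery in HepG2 nucleus was 74% for a change of 1 and 24% for one of 0.5. For the ratio shift a change of 1 was recovered for 48.5% in HepG2 and 61% in SNU-449. Only 100 genes were changed at each size (200 for the ratio shift), with 1 fixed spread for all genes of a line. In the data 39.7% to 48% of all genes passed with siPANAD, so these rates do not carry over to the real tests. They do not give the share of real changes that went uncalled.

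Members were named as the 5 largest changes in each direction per comparison among those past the threshold whose groups do not overlap, the 5 highest and 5 lowest ratios in NC, the 5 largest line differences, and up to 10 that changed alike in both cytoplasms. List genes were the 2 largest in each direction, and MALAT1, GAPDH, C7orf25 and CDK6 served as checks. Promoter windows were chosen after the values were seen. Alternatives were DESeq2 1.42.0, RLE size factors, no filter on low counts, the replicate number as a block, removal of each library's trend over transcript length (loess), the libraries of 1 fraction alone, each library left out, and, chosen after seeing the data, omission of members that share over 20% of their exonic bases with another gene.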

Additional observations from a re-analysis of the deposited data

Results flagged for a closer look

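The effect of siPANAD in the cytoplasm differed between the lines for 14 of 76 members (18.4%), where 18.2% of all genes passed. The difference itself was tested (SNU-449 minus HepG2, edgeR over 16 libraries). The largest were MRPL27 (-1.29, SE 0.18; edgeR adjusted p = 2.7e-07), MRPS35 (1.21, SE 0.18; edgeR adjusted p = 1.2e-06), MRPS33 (-1.01, SE 0.18; edgeR adjusted p = 4.5e-05), MRPS15 (-0.97, SE 0.16; edgeR adjusted p = 7.8e-06) and MRPL14 (-0.80, SE 0.21; edgeR adjusted p = 0.00829). HepG2 cytoplasm held MRPL14 at 147 and 192 CPM with NC and 241 and 216 CPM with siPANAD, and that of SNU-449 at 338 and 305, then 250 and 258 CPM. Its call was lost without SNU-449 cytoplasm NC replicate 1 (-0.75) and with the replicate number as a block (-0.82; edgeR adjusted p = 0.0581).

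In the nucleus the effect also differed for 14 of 76 members by the same test (18.4%, where 20.9% of all genes passed). They were led by MRPL23 (-1.24, SE 0.36; edgeR adjusted p = 0.0335), MRPL27 (-1.12, SE 0.18; edgeR adjusted p = 5.1e-06), MRPL43 (-0.93, SE 0.17; edgeR adjusted p = 3.9e-05), MRPL41 (-0.83, SE 0.24; edgeR adjusted p = 0.0132) and MRPL39 (-0.83, SE 0.22; edgeR adjusted p = 0.00409). MRPL23 lost its call in 13 of the fits with a library left out, and its HepG2 nucleus NC libraries were at 16.6 and 34.6 CPM. MRPL41 lost its call in 4 such fits and MRPL39 in 1, that without HepG2 nucleus siPANAD replicate 1 (-0.62).

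The ratio of nucleus to cytoplasm in NC differed between the lines for 47 of 76 members (61.8%), where 33.3% of all genes passed. The largest differences were those of MRPL15 (2.23, SE 0.17), MRPL9 (1.83, SE 0.17), MRPL38 (-1.55, SE 0.27), MRPL10 (1.53, SE 0.17) and MRPL36 (1.46, SE 0.25). MRPL15 was at 76.6 and 81.3 CPM in the cytoplasm and 20 and 23.1 CPM in the nucleus of HepG2, and at 32 and 31.4 CPM against 43.2 and 36.7 CPM in SNU-449.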

How the results depend on the processing

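Leaving out each library in turn moved the members called between 20 and 37 in HepG2 cytoplasm, 9 and 26 in HepG2 nucleus, 2 and 15 for the HepG2 ratio shift, 19 and 35 in SNU-449 cytoplasm and 20 and 33 in SNU-449 nucleus. For differences between the lines it was 5 to 18 in the nucleus and 0 to 3 for the ratio shift, where no filter on low counts gave 1. Every other count stayed within 1.5 times its own value under each alternative run, though the length trend moved the members' balance of directions as given above. The cause was not tested. The shares of all genes under these alternatives are not given here, so the members' counts have no background beside them. The SNU-449 ratio of MRPS25 turned from 0.24 to -0.18 with the length trend removed, with or without the block. Of 137 named values, 42 lost their threshold in at least 1 fit with a library left out and 21 under another alternative. Without the 14 members that share over 20% of their exonic bases, 26 rose and 4 fell in HepG2 cytoplasm and 4 and 24 did in SNU-449 nucleus.

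Replicate numbers gave little sign of pairing: deviations of same-numbered NC and siPANAD libraries correlated at -0.06 to 0.14 (Pearson) in the 4 pairs of groups. Those of same-numbered nuclear and cytoplasmic libraries correlated at 0.06 (NC) and 0.04 (siPANAD) in HepG2, and at -0.02 and -0.01 in SNU-449. Such values do not show that cultures were unpaired. The block was set within each line and fraction, so it did not allow for pairing of the fractions. With the replicate block 34 members were called in HepG2 cytoplasm, 19 in HepG2 nucleus, 35 in SNU-449 cytoplasm and 33 in SNU-449 nucleus. The block ended the calls of MRPL12 for the HepG2 ratio in NC (-3.52; edgeR adjusted p = 0.0534), MRPL33 in HepG2 nucleus, MRPL9 for the SNU-449 ratio shift and MRPL14 for the line difference in the cytoplasm. Members differed most between the NC replicates of HepG2 cytoplasm, with a median absolute log2 difference of 0.186.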
